A study of Mus musculus with 10 samples.

Results

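The ERK cascade core was represented by 7 of the 54532 genes in the spleen expression table, chosen by gene symbol. No cut on a measured value was used, but earlier results of these data were known when the genes were chosen. The genes were Hras and Nras, which encode RAS GTPases, Araf and Braf, which encode RAF kinases, Map2k1 and Map2k2, which encode the MEK1 and MEK2 kinases, and Mapk3, which encodes the kinase ERK1. Bulk RNA-seq was performed on spleens of 5 DUSP6 KO and 5 wild-type (WT) mice with KRN serum-induced arthritis (KSIA). The DUSP6 KO mice carried the Dusp6tm1Jmol allele (the sample records call the genotype a knockdown), and the WT mice carried no targeted allele. Every mouse in both groups received 100 µL of arthritogenic serum by intraperitoneal injection on day 0 and again on day 2, and spleens were taken on day 9, the peak of disease. A group without arthritis was not analysed here, so the values compare genotypes within arthritis only. The allele is a germline change present in all cells of the mouse, and each library came from 1 whole spleen.

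RAS proteins are small GTPases that receptors switch on at the cell membrane. Active RAS recruits RAF kinases, RAF phosphorylates MEK, and MEK phosphorylates ERK, which then acts on cytoplasmic targets and on transcription factors. DUSP6 is a phosphatase that removes the activating phosphates from ERK in the cytoplasm, and its own gene is a transcriptional target of the pathway. The cascade is switched mostly by phosphorylation and by nucleotide binding, neither of which RNA-seq measures. In the spleen the pathway works downstream of antigen receptors, cytokine receptors and receptors for haematopoietic growth factors.

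The libraries held between 14990474 and 19822673 reads assigned to genes in DUSP6 KO and between 15611652 and 18422147 in WT. All values in this section are FPKM (fragments scaled to gene length and library size). Levels of different genes depend on the gene length used, which for Braf was 13862 bases, against 9728 for its longest protein-coding transcript. Comparisons between genes below are therefore of FPKM and not of transcript number. Dusp6 was between 0.308 and 0.624 FPKM in the 5 DUSP6 KO libraries and between 16.6 and 24.0 FPKM in the 5 WT libraries, and the groups did not overlap (log2 difference -5.19, SE 0.16, adjusted p = 1.333e-07, limma). Markers of splenic B cells, T cells, red pulp macrophages and erythroid cells were present in every library. Xist was at most 0.0206 FPKM and Ddx3y at least 14.4 FPKM in all 10 libraries, although the records describe serum given to both sexes. Libraries that stood apart were WT replicate 67, with a summed exocrine pancreas marker level of 14150 FPKM (0.0997 to 165.7 in the other WT libraries), and DUSP6 KO replicate 21, with a fibroblastic stroma marker sum of 261.0 FPKM (58.3 to 91.3 in the other DUSP6 KO libraries). The haemoglobin genes took from 1.74% of reads in DUSP6 KO replicate 21 to 7.56% in DUSP6 KO replicate 73.

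None of the 7 core transcripts passed the test for a difference between DUSP6 KO and WT spleens. The RAS, RAF, MEK and ERK genes were all expressed in every library, the DUSP6 KO values overlapped the WT values for each of the 7, and the mean differences ran from -0.15 to 0.09 on the log2 scale. The gene with the widest spread, Hras, encodes a RAS GTPase and varied 2.413-fold among the DUSP6 KO spleens alone. Nras, which encodes the closely related NRAS protein, varied 1.089-fold over all 10 spleens.

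**Figure D1:**
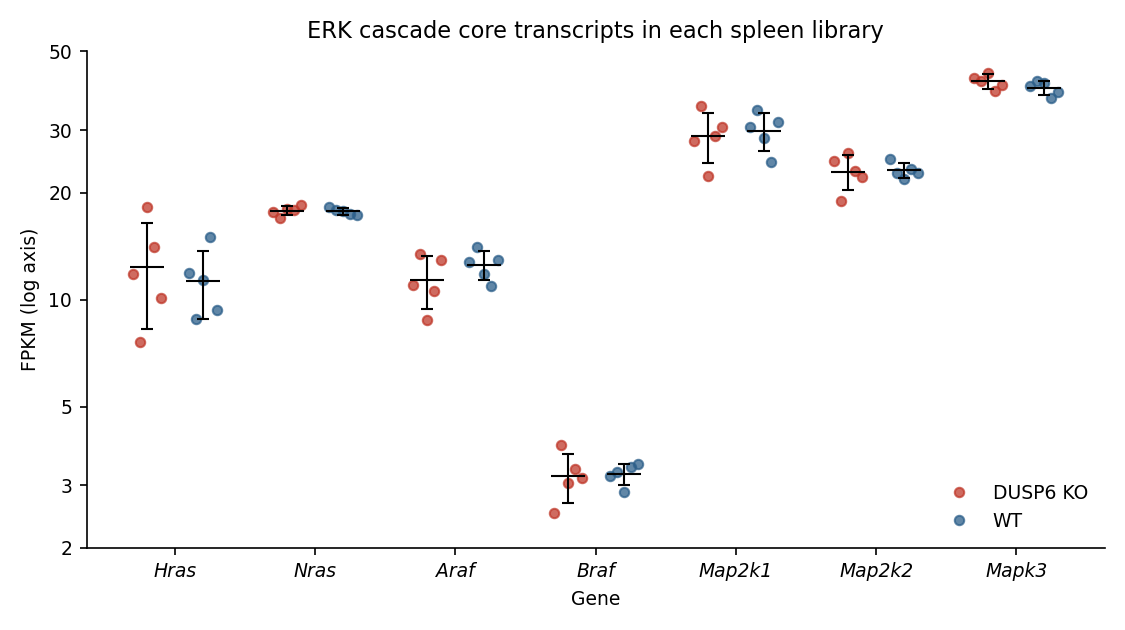
FPKM (log axis) of the 7 core genes in each library, with DUSP6 KO in red, WT in blue, and the black bar and whiskers giving the mean and SD of 5 libraries. Mapk3 sits highest at a mean of 40.3 FPKM and Braf lowest at 3.21 FPKM, the 2 colours overlap for every gene, and Nras forms the tightest cluster.

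The values of each gene are given below in a fixed order, with DUSP6 KO replicates 26, 21, 73, 01 and 03 followed by WT replicates 65, 67, 73, 77 and 83. Among the RAS genes, Hras was 11.8, 7.58, 18.3, 14.0 and 10.1 FPKM in DUSP6 KO. In WT it was 11.9, 8.81, 11.4, 15.0 and 9.34 FPKM. The lowest and the highest values both came from DUSP6 KO spleens, and the WT values lay between them. The means were 12.4 ± 4.07 FPKM in DUSP6 KO and 11.3 ± 2.45 in WT (SD, n = 5 each). The log2 difference was 0.09 with an SE of 0.23, and the 95% interval allowed a DUSP6 KO level from 0.756 to 1.51 times that of WT (adjusted p = 0.993, limma). Hras lies on chromosome 7 from 141189105 to 141194005 on the minus strand of GRCm38, the mouse build that the table's coordinates match.

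Nras, on chromosome 3 from 103058285 to 103067914 on the plus strand, was the steadier RAS gene. It was 17.7, 17.0, 17.9, 17.9 and 18.5 FPKM in DUSP6 KO, and 18.3, 17.8, 17.8, 17.4 and 17.3 FPKM in WT. Every spleen was close to the others, and the groups interleaved. The means were 17.8 ± 0.547 and 17.7 ± 0.371 FPKM, the log2 difference was 0.01 with an SE of 0.055, and the 95% interval ran from 0.924 to 1.09 times the WT level (adjusted p = 0.998, limma). The coefficient of variation of the Nras FPKM over the 10 libraries was 2.49%, against 2.44% from the counting of its reads alone (1402 to 2070 reads a library). Ranked by the within-group SD of the log2 FPKM, Nras was the 9th lowest of 13422 genes whose mean reached 1 FPKM. Both values depend on the deposited FPKM scale, which was 0.949 to 1.12 times the read total of a library. Against read totals Nras was less even. DUSP6 KO replicate 73 had 1402 Nras reads of 15434643, and replicate 03 had 1638 of 14990474. Hras stood at percentile 77.4 in that ranking.

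The RAF genes differed in level more than in spread. Araf, an X-linked gene (chromosome X, 20797814 to 20860519, plus strand), was 11.0, 13.5, 8.74, 10.5 and 12.9 FPKM in DUSP6 KO. In WT it was 12.8, 14.1, 11.8, 10.9 and 13.0 FPKM. Its 2 lowest values were both from DUSP6 KO spleens, and the other DUSP6 KO values lay among those of WT. The mean was 11.3 ± 1.90 FPKM in DUSP6 KO and 12.5 ± 1.19 in WT, and the log2 difference was -0.15 (SE 0.12, interval of the ratio 0.745 to 1.08, adjusted p = 0.978, limma).

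Braf, which encodes the RAF kinase with the highest basal activity, had the lowest mean FPKM of the 7. It was 2.51, 3.89, 3.04, 3.33 and 3.14 FPKM in DUSP6 KO and 3.18, 3.28, 2.87, 3.38 and 3.44 FPKM in WT. The DUSP6 KO values spanned those of WT on both sides. The log2 difference was -0.03 with an SE of 0.12 (interval of the ratio 0.812 to 1.18, adjusted p = 0.995, limma). Braf lies on chromosome 6 from 39603237 to 39725463 on the minus strand. Of its exon bases, 146 are shared with Ndufb2 on the opposite strand, and whether counting used strand was not given in the sources used here. Ndufb2 had a mean of 1.42 FPKM. Araf shares 9 exon bases with Syn1 on the opposite strand. The FPKM of Araf exceeded that of Braf in each of the 10 libraries, by 2.88 to 4.38 times.

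The MEK genes had the highest mean FPKM after Mapk3 of the 7. Map2k1, on chromosome 9 from 64185770 to 64253631 on the minus strand, was 27.9, 35.2, 22.3, 28.9 and 30.5 FPKM in DUSP6 KO. It was 30.7, 34.3, 28.5, 24.4 and 31.7 FPKM in WT. As with Hras, both extremes were DUSP6 KO spleens, but the order was inverted: replicate 73, highest for Hras, was lowest for Map2k1, and replicate 21, lowest for Hras, was highest for Map2k1. The log2 difference of Map2k1 was -0.05 with an SE of 0.13 (interval of the ratio 0.793 to 1.17, adjusted p = 0.993, limma).

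Map2k2 lies on chromosome 10 from 81105915 to 81133975 on the plus strand, 18.13 Mb from the targeted Dusp6 locus. It was 24.6, 19.0, 25.9, 23.0 and 22.2 FPKM in DUSP6 KO and 25.0, 22.7, 21.8, 23.4 and 22.8 FPKM in WT. The WT spleens fell within the range of the DUSP6 KO spleens. The log2 difference was -0.02 with an SE of 0.087 (interval of the ratio 0.863 to 1.13, adjusted p = 0.995, limma). The ratio of Map2k1 to Map2k2 was above 1 in 9 of 10 libraries and 0.861 in DUSP6 KO replicate 73.

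Mapk3, the ERK1 gene and the only ERK gene described here, had the highest mean FPKM of the 7. It lies on chromosome 7 from 126759601 to 126765819 on the plus strand. It was 42.2, 41.4, 43.5, 38.6 and 40.1 FPKM in DUSP6 KO and 40.0, 41.3, 40.8, 37.0 and 38.4 FPKM in WT. In 3 of 5 DUSP6 KO spleens the value was above every WT value, and the other 2 fell among them. The means were 41.2 ± 1.89 and 39.5 ± 1.79 FPKM, and the log2 difference was 0.06 with an SE of 0.061 (interval of the ratio 0.949 to 1.15, adjusted p = 0.982, limma). A two-sided exact permutation test of the 5 against 5 Mapk3 values gave p = 0.167, the lowest of the 7, where the smallest value this design can give is 0.00794.

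Over the full set, 0 of the 7 passed an adjusted p of 0.05 in limma, which 15 of 21296 genes tested (0.0704%) passed. By the unadjusted limma p of under 0.05, 0 of the 7 passed, beside 5.66% of all genes tested. The groups were free of overlap for 0 of the 7 and for 1.11% of all genes tested. A count of 0 among 7 is close to these backgrounds and is not a result about the core genes in particular. Of the 7, 3 had a higher and 4 a lower mean in DUSP6 KO, and the median size of the log2 difference was 0.053, against 0.15 over all genes tested. The 7 lay at percentiles 54.2 to 94.2 of the level of all genes tested, so these 2 medians are not matched for level. Without WT replicate 67 the 7 differences lay between -0.11 and 0.077, and without DUSP6 KO replicate 21 between -0.22 and 0.25, with no member passing in either case.

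**Figure D2:**
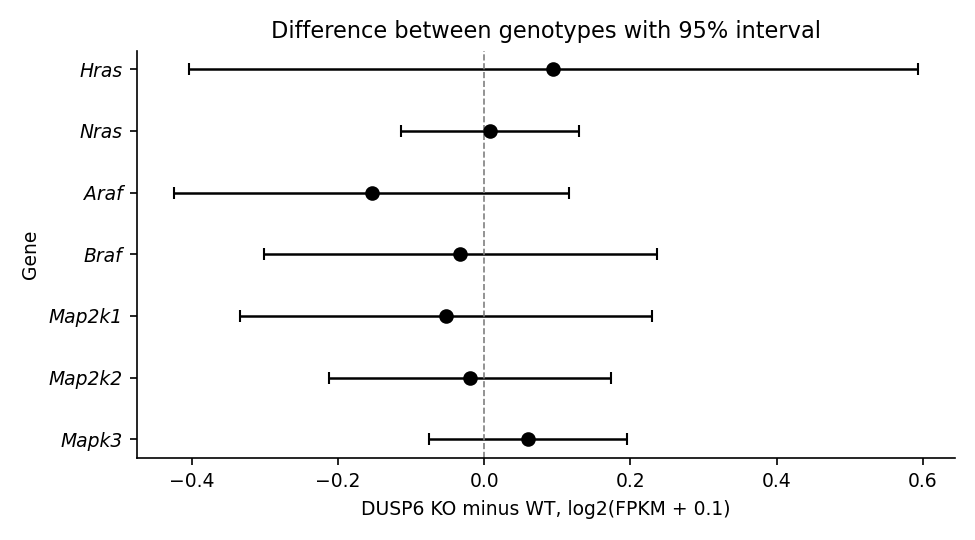
Difference between DUSP6 KO and WT for each core gene on the log2(FPKM + 0.1) scale, with points for the limma estimate and whiskers for its 95% interval. All 7 intervals cross 0, that of Hras runs from -0.40 to 0.59, and that of Nras from -0.11 to 0.13.

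The order of FPKM levels was the same in nearly every spleen of both genotypes. Mapk3 was above Map2k1 in 10 of 10 libraries, Map2k1 was above Map2k2 in 9, Map2k2 was above Nras in 10, and Nras was above Araf in 10. Araf and Hras, with means of 11.9 and 11.8 FPKM, could not be ordered, since Araf was the higher in 6 of 10. Both were above Braf in each library. The transcripts of the later kinases in the cascade, MEK and ERK1, were more abundant per length of gene than those of RAS and RAF in these spleens. On the log2 scale the Hras to Nras ratio was -0.59 ± 0.46 in DUSP6 KO and -0.68 ± 0.31 in WT, that of Araf to Braf was 1.83 ± 0.25 and 1.95 ± 0.16, and that of Map2k1 to Map2k2 was 0.33 ± 0.40 and 0.36 ± 0.20 (mean ± SD, n = 5 each, not tested). None of the 3 ratios moved between genotypes by as much as its SD.

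Although no core gene passed the test between genotypes, 3 of them varied together from spleen to spleen. Hras was high where Araf and Map2k1 were low, and Araf and Map2k1 were high in the same spleens. Hras and Map2k1 had a Pearson r of -0.94 over 10 libraries and a Spearman rho of -0.87 (permutation p adjusted over 21 pairs 0.00112 and 0.0147). Hras and Araf had an r of -0.92 and a rho of -0.94 (adjusted permutation p = 0.00112 and 0.0042), and Araf and Map2k1 an r of 0.92 and a rho of 0.90 (adjusted permutation p = 0.00112 and 0.00798). These were the 3 pairs of 21 that passed on both measures. When the 2 libraries farthest from the median of the first gene were left out, r was -0.87, -0.88 and 0.93 for the 3 pairs in that order. With each value centred on its genotype mean r was -0.94, -0.95 and 0.95, so the relations lay within genotypes.

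Hras and Map2k2 had an r of 0.75 (adjusted permutation p = 0.0581) and a rho of 0.79 (adjusted permutation p = 0.0471), and r fell to 0.33 without the 2 farthest libraries, so that relation rested on those spleens. Nras and Mapk3 passed in no pair. No pair of genes that shared a step of the cascade passed. Hras and Nras had an r of 0.31 (rho 0.38), Araf and Braf 0.39 (rho 0.39), and Map2k1 and Map2k2 -0.66 (rho -0.60), with adjusted permutation p-values of 0.574, 0.442 and 0.161 for r and 0.534, 0.534 and 0.253 for rho. For these same-step pairs r without the 2 farthest libraries was -0.13, 0.58 and -0.59.

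The 3 transcripts that varied together followed the marker genes of particular spleen cell types. The summed FPKM of 6 erythroid markers (Hba-a1, Hbb-bt, Alas2, Klf1, Slc4a1 and Epor) was 36307, 10417, 52646, 25017 and 15380 in DUSP6 KO. It was 20194, 12005, 24177, 26036 and 13013 in WT. The spleens with the highest and lowest erythroid sums, DUSP6 KO replicates 73 and 21, were also those with the highest and lowest Hras. In bulk tissue, fewer cells of a type and less RNA per cell cannot be told apart.

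Hras and the erythroid sum had an r of 0.91 and a rho of 0.90 (permutation p adjusted over 105 gene and list pairs 0.00495 and 0.0133). Araf and the same sum had an r of -0.93 and a rho of -0.94 (adjusted permutation p = 0.00231 and 0.0084), and Map2k1 an r of -0.91 and a rho of -0.96 (adjusted permutation p = 0.00495 and 0.00262). Without the 2 libraries with the most extreme erythroid sums, r was 0.78 for Hras, -0.88 for Araf and -0.78 for Map2k1. Without DUSP6 KO replicate 73, r of Hras with the erythroid sum was 0.85 and no longer passed (adjusted permutation p = 0.0501). As shares of the within-genotype variance of the log2 level, the erythroid sum went with 83.4% for Hras, 86.9% for Araf, 83.6% for Map2k1, 63.8% for Map2k2 and 43.7% for Braf. The same share was 5.69% for Nras and 3.71% for Mapk3. All these shares hold for the deposited FPKM scale and were not computed against read totals, against which Nras was less even. With the haemoglobin genes left out of the marker list (4 markers), r was 0.96 for Hras, -0.94 for Araf and -0.96 for Map2k1.

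**Figure D3:**
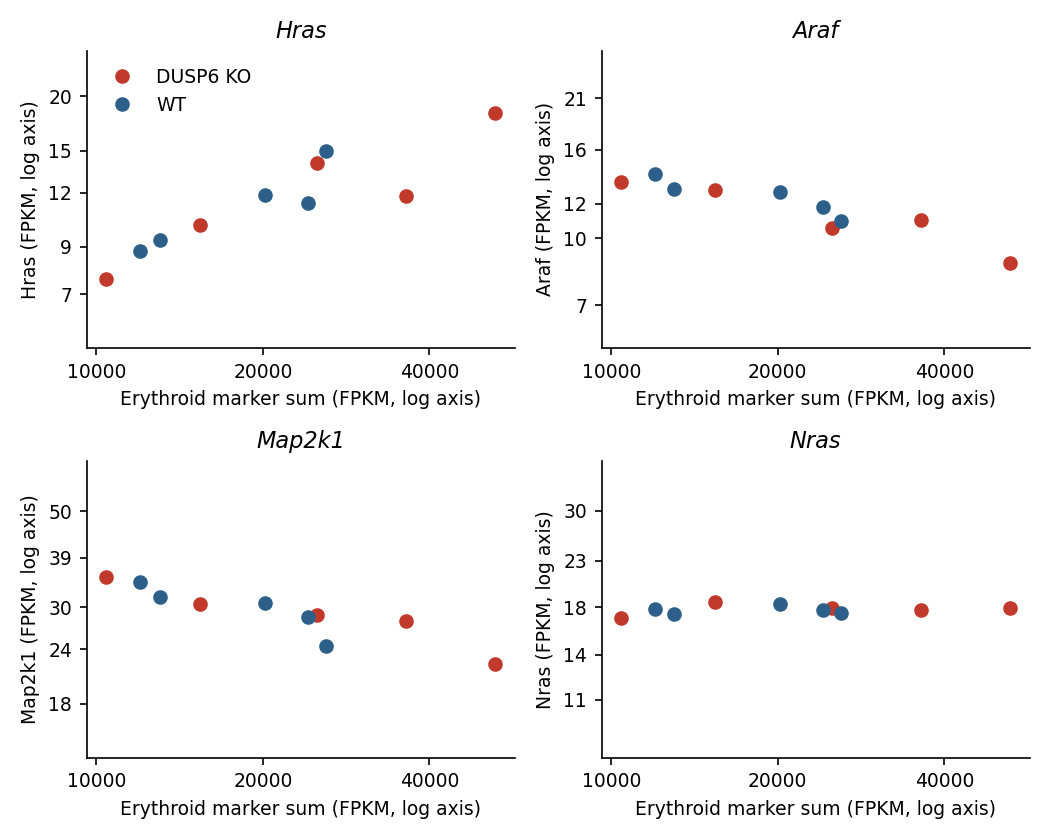
FPKM of Hras, Araf, Map2k1 and Nras (log axes, each spanning the same fold range) against the summed FPKM of 6 erythroid markers (log axis) in each library, DUSP6 KO in red and WT in blue. Hras runs from 7.58 FPKM at the lowest to 18.3 FPKM at the highest erythroid sum, Araf and Map2k1 run downwards, and Nras stays between 17.0 and 18.5 FPKM, with both genotypes on the same course.

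Other genes followed the erythroid markers as well. Of 13422 genes whose mean reached 1 FPKM, 2.15% followed the erythroid sum at least as closely as Hras and in the same direction, 0.231% did so for Araf and 0.685% for Map2k1. Markers of proliferating cells (Mki67, Top2a, Ccnb1, Cdk1, Birc5 and Aurkb) gave an r of 0.97 and a rho of 0.93 with Hras (adjusted permutation p = 0.00231 and 0.00919), and r was 0.98 without the 2 farthest libraries. At least as close a relation with that sum was found for 3.26% of genes. Araf had an r of -0.92 (rho -0.96, adjusted permutation p = 0.00231 and 0.00262, r without the 2 farthest libraries -0.87) with the proliferating sum, and Map2k1 an r of -0.94 (rho -0.90, adjusted permutation p = 0.00231 and 0.0133, r without the 2 farthest libraries -0.91). B cell markers went the other way. With the B cell sum Hras had an r of -0.87 (rho -0.79, adjusted permutation p = 0.0104 and 0.0808, r without the 2 farthest libraries -0.68), Araf of 0.90 (rho 0.89, adjusted permutation p = 0.00231 and 0.0153, r without the 2 farthest libraries 0.86) and Map2k1 of 0.91 (rho 0.79, adjusted permutation p = 0.00604 and 0.0808, r without the 2 farthest libraries 0.67). The dendritic cell sum had an r of -0.81 with Hras (rho -0.88, adjusted permutation p = 0.05 and 0.0223, r without the 2 farthest libraries -0.72). Without DUSP6 KO replicate 73, r of Map2k1 with the B cell sum was 0.84 and did not pass (adjusted permutation p = 0.058).

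These marker sums were not independent of each other. The erythroid and proliferating sums had an r of 0.89 (rho 0.90, permutation p = 0.00074 and 0.00079) and the erythroid and B cell sums an r of -0.77 (rho -0.79, permutation p = 0.00828 and 0.0087), and r without the 2 farthest libraries was 0.78 and -0.66. Which of these cell types carried the relation to Hras, Araf or Map2k1 was not tested. Of 105 gene and list pairs, 15 passed by Pearson r and 8 by both r and rho, and the 8 involved Hras, Araf and Map2k1 and no other core gene. Some of the 15 stood at the threshold itself, with an adjusted permutation p of 0.05. They were the T cell sum with Hras (r -0.79), Araf (0.78) and Map2k1 (0.80), and the dendritic cell sum with Hras. The endothelium sum with Map2k1 (0.81) and the stroma sum with Map2k2 (-0.78) were the others. Of these only the dendritic cell pair passed on rho. Mapk3 was highest in r with red pulp macrophage markers (r 0.78, rho 0.76, adjusted permutation p = 0.0544 and 0.11, r without the 2 farthest libraries 0.66), a relation that did not pass and that had an r of 0.48 after the FPKM values were rescaled to the read totals.

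None of the 15 marker sums differed between genotypes after adjustment over the 15 sums. The erythroid sum had a median of 25020 FPKM in DUSP6 KO and 20190 in WT (range 10420 to 52650 and 12000 to 26040, exact permutation p = 0.429). The neutrophil sum ran from 561.7 to 1932 FPKM in DUSP6 KO and from 1117 to 4772 in WT (exact permutation p = 0.0397, adjusted 0.555).

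**Figure D4:**
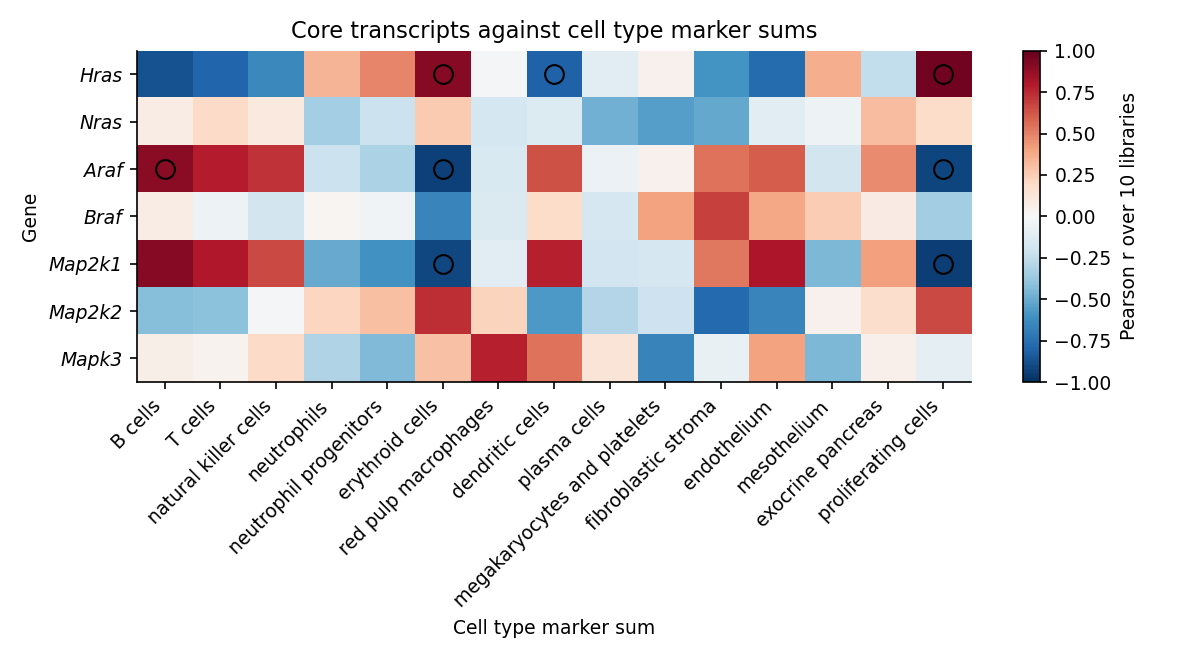
Pearson r over 10 libraries (colour, red positive and blue negative) between the log2 level of each core gene and the log2 summed FPKM of each of 15 cell type marker lists, with rings on the 8 pairs that passed on both r and rho. Hras and the pair of Araf and Map2k1 have opposite colours across the B cell, T cell, erythroid and proliferating columns. The Nras row holds no ring, and its r farthest from 0 is -0.55, with megakaryocyte and platelet markers.

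The genes most like each member in profile over the 10 libraries were sought among the same 13422. Hras was closest to E2f4 (r 0.99), which encodes an E2F family transcription factor, and to Ptpa (r 0.99). Araf was closest to Rassf2 (r 0.98) and to Rel (r 0.98), the gene of the c-Rel subunit of NF-kappaB, and Map2k1 to Eif4g3 (r 0.99) and Ralgps2 (r 0.99). Mapk3 was closest to Syf2 (r 0.94) and to C1qb (r 0.92), which encodes a chain of complement C1q. Nras was closest to Mrpl37 (r 0.91) and Tfap4 (r 0.90), Braf to Secisbp2l (r 0.98) and Tspan12 (r 0.93), and Map2k2 to Lrrc14 (r 0.97) and Txn2 (r 0.96). These values were picked as the highest of many and carry no test.

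Promoter sequence was read for the members whose transcripts varied together, to show what stands before each gene. The RefSeq table for GRCm38.p6 held 6 of the 7 members, all but Mapk3. The 250 bases before the start of Hras (chr7:141194005-141194254, minus strand), Araf (chrX:20848293-20848542, plus strand, before a start that lies inside the span of the gene given above) and Map2k1 (chr9:64253606-64253855, minus strand) read as follows, with capitals marking GGGCGG, the core of the GC box, and CCAAT, each on either strand (CCGCCC and ATTGG).
Hras: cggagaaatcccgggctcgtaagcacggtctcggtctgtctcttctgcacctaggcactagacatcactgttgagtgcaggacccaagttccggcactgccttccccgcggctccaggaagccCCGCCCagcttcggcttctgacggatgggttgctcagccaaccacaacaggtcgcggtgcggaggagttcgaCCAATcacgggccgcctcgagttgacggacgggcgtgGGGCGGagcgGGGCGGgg
Araf: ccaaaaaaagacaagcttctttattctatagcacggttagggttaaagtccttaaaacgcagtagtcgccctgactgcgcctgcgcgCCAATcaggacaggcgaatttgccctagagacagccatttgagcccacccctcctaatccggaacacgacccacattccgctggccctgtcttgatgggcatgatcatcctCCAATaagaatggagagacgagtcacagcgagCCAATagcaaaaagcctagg
Map2k1: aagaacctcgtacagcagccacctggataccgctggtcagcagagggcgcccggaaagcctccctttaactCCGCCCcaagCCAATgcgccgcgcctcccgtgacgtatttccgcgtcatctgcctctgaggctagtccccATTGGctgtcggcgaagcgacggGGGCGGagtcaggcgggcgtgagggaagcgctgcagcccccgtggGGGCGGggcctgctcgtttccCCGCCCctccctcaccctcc
Hras held 3 GGGCGG and 1 CCAAT, Araf held 0 and 3, and Map2k1 held 4 and 2. Whether these motifs bear on how the 3 transcripts varied was not tested. None of the 3 held TATAAA. Of 32851 promoters of that length, 32.7% held GGGCGG, 33.8% CCAAT and 12.4% TATAAA. Among the members, Nras held 2 GGGCGG that overlap, and Braf and Map2k2 held 1 each, all without CCAAT. The share of G and C was 65.6% for Hras, 51.2% for Araf and 68.4% for Map2k1, beside a median of 52.4%. The motifs were picked after the expression values were known, and a match describes letters only.

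Around the core, 10 lists of genes that feed into, scaffold, relay or answer to the cascade held 102 genes, of which 97 were tested. None passed the adjusted threshold, and the lowest adjusted p was 0.243 for Spry1 (limma). The paper, which used DESeq2 on read counts, lists Spry1 and Spry4 as significantly higher in DUSP6 KO spleens. Its text also names Spry2 (printed as Spy2). It further reports enrichment of processes that regulate the ERK cascade among the genes increased in DUSP6 KO. The limma fit on log2 FPKM was a different test and was less sensitive for Spry1 and Spry4. The reason was not tested. By unadjusted p under 0.05, 5 were higher in DUSP6 KO (2.62% of all genes tested were) and 2 were lower (3.03% of all genes tested were). The 5 were all among 17 tested ERK feedback and target genes, and the 2 were in the list of parallel MAP kinase modules. In the other 8 lists, from receptor adaptors to ERK-activated kinases, 0 genes reached even that level.

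The 5 feedback genes were Spry1, Spry4 and Spry2, which encode Sprouty inhibitors of the pathway, and the transcription factor genes Fos and Etv5. Spry1 was 4.81 ± 1.09 FPKM in DUSP6 KO and 2.30 ± 0.594 in WT, with no overlap between groups (log2 difference 1.04, SE 0.20). The log2 differences were 0.74 for Spry4, 0.55 for Spry2, 0.94 for Fos and 0.47 for Etv5. In that list 15 of 17 genes had a positive difference and the median was 0.25, beside -0.020 for the 7 core genes and -0.0046 for all genes tested. The list was chosen with earlier results of these data known, so its shift is a description and not a test. The 2 lower genes were the p38 family members Mapk13 (log2 difference -0.71, SE 0.28) and Mapk12 (-0.52).

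The lists nearest to the core members sat close to 0. The receptor-proximal adaptors had a median log2 difference of 0.060 over 8 genes, the RAS exchange factors 0.0083 over 7, and the RAS processing enzymes 0.029 over 6. Related RAS family GTPases had a median of -0.013 over 7 genes, and RAF regulators and scaffolds -0.027 over 15. RAS GTPase-activating proteins, which switch RAS off, had a median of -0.088 over 10. Within them Rasa1 was 8.43 ± 0.633 FPKM in DUSP6 KO and 9.54 ± 0.673 in WT (log2 difference -0.18, adjusted p = 0.881, limma). Rasal2 was 1.25 ± 0.188 and 0.954 ± 0.143 FPKM (log2 difference 0.35, adjusted p = 0.902, limma). Rasgrp2, an exchange factor that activates Rap GTPases in platelets, was 14.4 ± 2.85 and 17.5 ± 2.43 FPKM (log2 difference -0.30, adjusted p = 0.938, limma). Ksr2, a scaffold that holds RAF, MEK and ERK together, was 0.505 ± 0.0540 and 0.354 ± 0.0839 FPKM (log2 difference 0.43, adjusted p = 0.922, limma).

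Downstream of ERK, the ERK-activated kinases and factors had a median of -0.031 over 13 genes. In that group Rps6ka3, which encodes the kinase RSK2, was 11.6 ± 1.46 FPKM in DUSP6 KO and 13.1 ± 0.660 in WT (log2 difference -0.17, adjusted p = 0.942, limma), and Ets2 was 11.5 ± 2.10 and 9.80 ± 1.29 FPKM (log2 difference 0.22, adjusted p = 0.953, limma). Map3k8, which encodes the MEK kinase TPL2, was 2.85 ± 0.777 and 3.41 ± 0.839 FPKM (log2 difference -0.25, adjusted p = 0.978, limma). Both other MEK kinases tested had negative differences (median -0.15), and the 12 parallel MAP kinase genes had a median of 0.0099. The groups overlapped for each of the genes named here. Other genes named by the lowest p of their list in one direction were Gab2 (log2 difference 0.14) and Frs3 (-0.44) among the adaptors, Sos2 (0.10) among the exchange factors, and Rit1 (0.12) and Rap1b (-0.12) among the related GTPases. They also included Rce1 (0.033) among the processing enzymes, Lamtor3 (-0.16) among the scaffolds, Ier3 (-0.24) among the feedback and target genes, and Map2k6 (0.19) in the parallel modules. The groups overlapped for these genes too, and none passed.

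**Figure D5:**
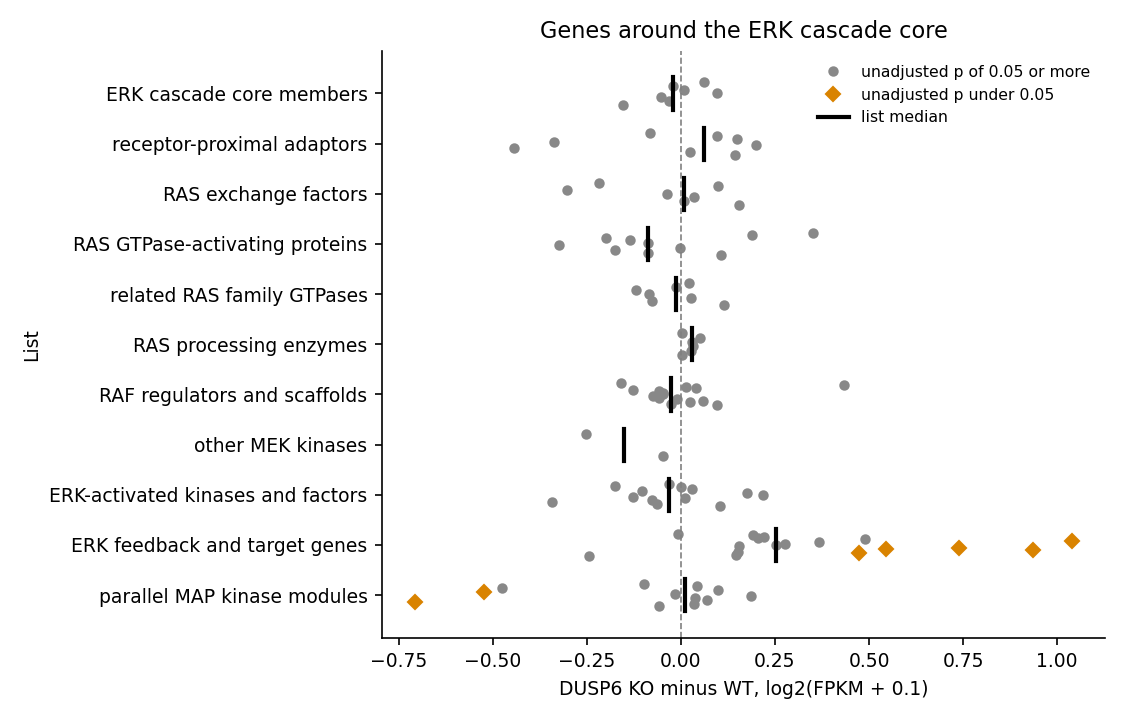
Difference between DUSP6 KO and WT on the log2(FPKM + 0.1) scale for the 7 core genes and for the tested genes of 10 surrounding lists, with 1 point a gene, orange diamonds for an unadjusted limma p under 0.05 and a black bar at each list's median. The core members cluster at 0 around a median of -0.020, and the 5 diamonds on the right are ERK feedback and target genes, up to 1.04 for Spry1.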

How the data were processed

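The authors sequenced poly(A)-selected RNA as paired-end reads and aligned it with Hisat2, and the submitters' processing notes name featureCounts 1.5.0-p3. Strand use was not given in the sources used here. The deposited table holds FPKM per gene. Its FPKM scale was 0.949 to 1.12 times the library's read total. Coordinates matched GENCODE M21 (GRCm38) for 98.3% of shared genes, and the notes name hg38. Whole reads were recovered for 100% of values (tolerance 0.01).

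The 21296 genes whose mean reached 0.1 FPKM were tested with limma 3.58.1 (trended eBayes, R 4.3.3) on log2(FPKM + 0.1), which understates changes of low genes, with Benjamini-Hochberg adjustment over all of them. The method was tested on simulated data. Exact permutation tests were two-sided, and correlations used 100000 permutations, two-sided. Repeated sequence was sought with blastn 2.17.0: Nras shares stretches of 146 to 172 bases at 95% identity or more with Slc3a2, Ilf2 and Gm26518. Group p-values set the genotype difference against the spread between mice, and correlation p-values test association over the 10 libraries of both genotypes.

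Named genes were the members, Dusp6, the gene with the lowest limma p in each direction of each list, and the 2 genes closest in profile to each member. Mapk12 and the Spry2, Spry4, Fos and Etv5 values were added after they were seen. The members and lists were chosen with earlier results of these data known. Some genes that the naming rule or the erythroid list held are not reported here, and the erythroid sum was computed without them. Alternatives were other pseudocounts, filters, scalings, limma options, limma voom on recovered reads and leaving out each library.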

Additional observations from a re-analysis of the deposited data

Results flagged for a closer look

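Of 54 groups of 5 libraries examined (the core genes, their ratios, marker sums and read totals), 7 held a library far from the other 4. The cut used flags about 1 in 20 only for independent and normally distributed values. Marker sums were related to each other and some were skewed, so the 7 cannot be set against that rate. No core gene was among the 7. WT replicate 67 stood apart in exocrine pancreas markers, at 14150 FPKM against at most 165.7 in the other WT libraries, and in total reads, at 18422147. DUSP6 KO replicate 21 stood apart in fibroblastic stroma markers (261.0 FPKM against at most 91.3) and in megakaryocyte and platelet markers (310.7 against at most 244.4). Neutrophil progenitor markers were at 119.5 FPKM in DUSP6 KO replicate 73 (at most 66.1 in the others) and at 423.3 in WT replicate 77 (at most 148.9). Plasma cell markers were at 500.1 FPKM in DUSP6 KO replicate 01, below the 682 or more of the other DUSP6 KO libraries.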

How the results depend on the processing

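The count of core genes called stayed at 0, adjusted or unadjusted, under each of the alternatives run, limma voom on recovered reads among them. Of 161 values (23 alternatives for each of the 7 log2 differences), 151 kept their direction, 10 turned it, none passed the threshold, and the lowest adjusted p was 0.734. With the haemoglobin share as a covariate the difference was -0.15 for Hras, -0.023 for Araf, 0.046 for Braf, 0.083 for Map2k1, -0.092 for Map2k2, 0.0034 for Nras and 0.044 for Mapk3. Leaving out 1 library at a time gave ranges of -0.061 to 0.25 for Hras (negative without DUSP6 KO replicate 73), -0.0065 to 0.024 for Nras, -0.22 to -0.066 for Araf (nearest 0 without DUSP6 KO replicate 73), -0.11 to 0.047 for Braf, -0.13 to 0.038 for Map2k1, -0.065 to 0.046 for Map2k2 and 0.037 to 0.083 for Mapk3. The count over all genes tested went from 15 to between 12 and 32, with 32 without DUSP6 KO replicate 21. The number of core gene pairs that correlated was 3 each time 1 library was left out. The number of gene and marker list pairs that passed by Pearson r fell from 15 to between 9 and 13, with 9 without DUSP6 KO replicate 01 or 73, WT replicate 65 or WT replicate 67. The cause of these shifts was not tested. All 33 alternatives of the paralog ratios moved them by less than 1 SD. Rescaling to the read total, the covariate and the correlation alternatives were chosen after seeing the data. No paired analysis was made because the records give no pairing of DUSP6 KO with WT mice. The replicate number 73 occurs in both groups, but the labels do not make these spleens a pair. With 5 libraries a group, the widest 95% interval was that of Hras (0.756 to 1.51 times the WT level) and the narrowest that of Nras (0.924 to 1.09).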
